A study of Mus musculus with 24 samples.

Results

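The GIMAP genes (GTPases of the immunity-associated protein family) were followed here as 1 small gene family, Gimap1, Gimap3, Gimap4, Gimap5, Gimap6, Gimap7, Gimap8 and Gimap9, through 24 mouse prostate tumors treated with interleukin-27 (IL-27), cabozantinib (cabo) or both. The 8 genes are 8 of the 55401 Ensembl genes in the count table and were found by the gene identifiers that GENCODE M21 pairs with these symbols. The family was chosen by measured values: Gimap3 was lower at the end of the study (EOS) than at day 14 in control tumors, and Gimap6 was lower with cabo than without it at day 14. Those contrasts are therefore described below with no p-value, and nothing is read from how many members pass a threshold in them. Tests are given for the other contrasts.

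GIMAP proteins are GTP-binding proteins, many of them anchored in the membranes of the endoplasmic reticulum, mitochondria or lysosomes, and they are known for governing the survival and development of lymphocytes. Loss of Gimap5 shortens the life of T cells in rodents, Gimap1 is needed for mature T and B cells, and Gimap3 and Gimap5 can bind members of the BCL2 family that control cell death. Gimap4 speeds the death of T cells under stress, and Gimap6 binds a protein of the ATG8 family used in autophagy. Gimap7 hydrolyses GTP as a dimer, and Gimap8 is the longest protein of the family. Transcripts of several members have also been found in endothelial cells, so in a whole tumor the family can be read from more than 1 kind of cell.

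All tumors grew from TC2Ras, a mouse prostate adenocarcinoma cell line, in male C57/BL6 mice of 8 to 10 weeks of age. The 4 subcutaneous tumors came from mice given an empty vector (control, n = 2) or a plasmid encoding IL-27 (n = 2) and were taken after 1 week. The 20 intratibial tumors came from luciferase-marked cells placed in the tibia, with an empty or IL-27 vector delivered to muscle by ultrasound and with daily oral cabo, a kinase inhibitor of VEGF receptors, MET and AXL, or its vehicle PVP (polyvinylpyrrolidone). At day 14, when dosing ended, each of the groups control (empty vector and PVP), IL-27 (with PVP), cabo (with empty vector) and IL-27+cabo had 3 tumors, and at the EOS each had 2. Subcutaneous and intratibial tumors differ in site, age of the tumor, luciferase marking, oral dosing with PVP or cabo, and library series, which cannot be told apart. The subcutaneous labels do not say that the 2 samples of a group came from separate animals, so the p-values there measure the spread between samples, which may be technical. Each value is from bulk tissue, so fewer cells of a type cannot be told apart from less RNA per cell.

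The family forms a cluster of 123.6 kb on chromosome 6 (GRCm38) in the order Gimap8, Gimap9, Gimap4, Gimap6, Gimap7, Gimap1, Gimap5 and Gimap3. Gimap8 opens it at chr6:48647234-48660875, Gimap4 lies at chr6:48684549-48692060, Gimap6 at chr6:48701582-48708225, Gimap7 at chr6:48718621-48724636, and Gimap3 closes it at chr6:48764464-48770851. Gimap6 and Gimap3 lie on the minus strand and the other 6 on the plus strand. Reads of neighbours could have been shared for 3 members: a readthrough gene on the same strand, Gm28053, shares 6.4% of the exonic bases of Gimap1, 3.7% of those of Gimap5 and 3.5% of those of Gimap7, and the antisense gene Gimap1os overlaps 36.0% of those of Gimap1. The strand setting of the counting is not given in the sources used here, so Gimap1 is the least certain member.

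Promoters are shown for the members on which the results turn, Gimap4 and Gimap6, which had positive log2 fold changes between day 14 and the EOS in cabo-treated tumors, and Gimap3 and Gimap7, which had negative ones. Each is the 300-base RefSeq window on GRCm38.p6 from 250 bases before the start site, 5′ to 3′ on the strand of the gene, and the capitals mark matches on either strand to GGAAGT (the core read by ETS factors), TGTGGT (RUNX) or TTCNNNGAA (STAT).
Gimap4 promoter, chr6:48684328-48684627, plus strand: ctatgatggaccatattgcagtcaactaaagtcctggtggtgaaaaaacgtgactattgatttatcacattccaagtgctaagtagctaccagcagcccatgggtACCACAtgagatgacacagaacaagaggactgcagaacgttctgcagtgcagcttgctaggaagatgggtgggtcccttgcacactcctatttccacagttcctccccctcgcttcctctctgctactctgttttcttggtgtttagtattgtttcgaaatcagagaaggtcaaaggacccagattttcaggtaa
Gimap6 promoter, chr6:48708195-48708494, minus strand: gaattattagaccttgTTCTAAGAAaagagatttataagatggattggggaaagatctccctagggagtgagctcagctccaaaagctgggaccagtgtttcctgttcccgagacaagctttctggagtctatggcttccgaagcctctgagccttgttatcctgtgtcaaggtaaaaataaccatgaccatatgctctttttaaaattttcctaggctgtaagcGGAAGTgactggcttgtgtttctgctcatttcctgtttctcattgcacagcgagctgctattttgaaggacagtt
Gimap7 promoter, chr6:48718371-48718670, plus strand: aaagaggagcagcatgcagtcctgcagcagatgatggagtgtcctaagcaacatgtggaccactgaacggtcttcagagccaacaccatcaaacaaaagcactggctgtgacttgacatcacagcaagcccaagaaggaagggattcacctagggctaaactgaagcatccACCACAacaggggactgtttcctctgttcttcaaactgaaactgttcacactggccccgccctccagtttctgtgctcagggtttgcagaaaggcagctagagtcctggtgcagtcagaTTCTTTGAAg
Gimap3 promoter, chr6:48770802-48771101, minus strand: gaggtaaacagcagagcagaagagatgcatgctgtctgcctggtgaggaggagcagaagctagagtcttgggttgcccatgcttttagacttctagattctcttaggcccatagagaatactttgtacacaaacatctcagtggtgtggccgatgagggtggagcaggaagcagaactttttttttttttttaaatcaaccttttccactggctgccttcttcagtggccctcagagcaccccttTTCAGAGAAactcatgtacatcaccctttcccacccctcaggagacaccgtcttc
Over the 9 promoter windows of the 8 members (Gimap8 has 2), the ETS core was found in those of 4 members, the RUNX core in 3 and the STAT motif in 4. The same letters occur in 23.8%, 16.8% and 8.3% of all 32851 promoters of that length. The GATA motif AGATAA, held by 11.2% of all promoters, and the core of the interferon-stimulated response element, held by 3.44%, were found in 0 of the 9 windows. In Gimap6 the ETS match starts 25 bases before the start site, and in Gimap3 the STAT match starts 5 bases before it. A match describes the letters only.

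Libraries held 63729005 to 83782258 counts over genes and 21269 to 24028 genes with a count. The day 14 IL-27+cabo tumor of mouse 20 had the fewest counts and genes and the highest skeletal muscle sum, 5610 CPM (counts relative to the TMM-scaled library size) over 14 muscle genes. Among the day 14 IL-27 tumors mouse 4 stood apart, with 9.13 CPM of Cd3e (a subunit of the T cell receptor complex) where the lowest of its group had 1.18. The line's labelled origin was checked with tumor and epithelial genes: Hras, Krt8, Krt18 and Epcam had counts in all 24 tumors, with medians of 19, 36.2, 1.78 and 2.56 CPM. Of 19 T cell genes 14 had counts in every tumor.

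All 8 members had counts in all 24 tumors and passed the filter on low counts in every comparison. Per kb of exon, Gimap4 had the highest median level over the 24 tumors, 6.24 CPM per kb, followed by Gimap6 with 3.16, Gimap9 with 2.35 and Gimap3 with 1.41. Gimap8, Gimap1, Gimap7 and Gimap5 lay below 1, at 0.787, 0.53, 0.34 and 0.308 CPM per kb. Gimap7 was the thinnest in counts, with 5 to 237 a tumor, and Gimap4 the richest, with 304 to 8937. The spread over the 10 groups was widest for Gimap3, whose highest group mean was 16.7 times its lowest, and narrowest for Gimap9, at 2.98 times. For Gimap3 the highest group was day 14 control, whose values chose it, so its spread is a description only. Summed over the family, day 14 control tumors held 71.2 to 91.6 CPM and subcutaneous IL-27 tumors 129 to 228, and the other 8 groups 22.1 to 66.6.

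**Figure D1:**
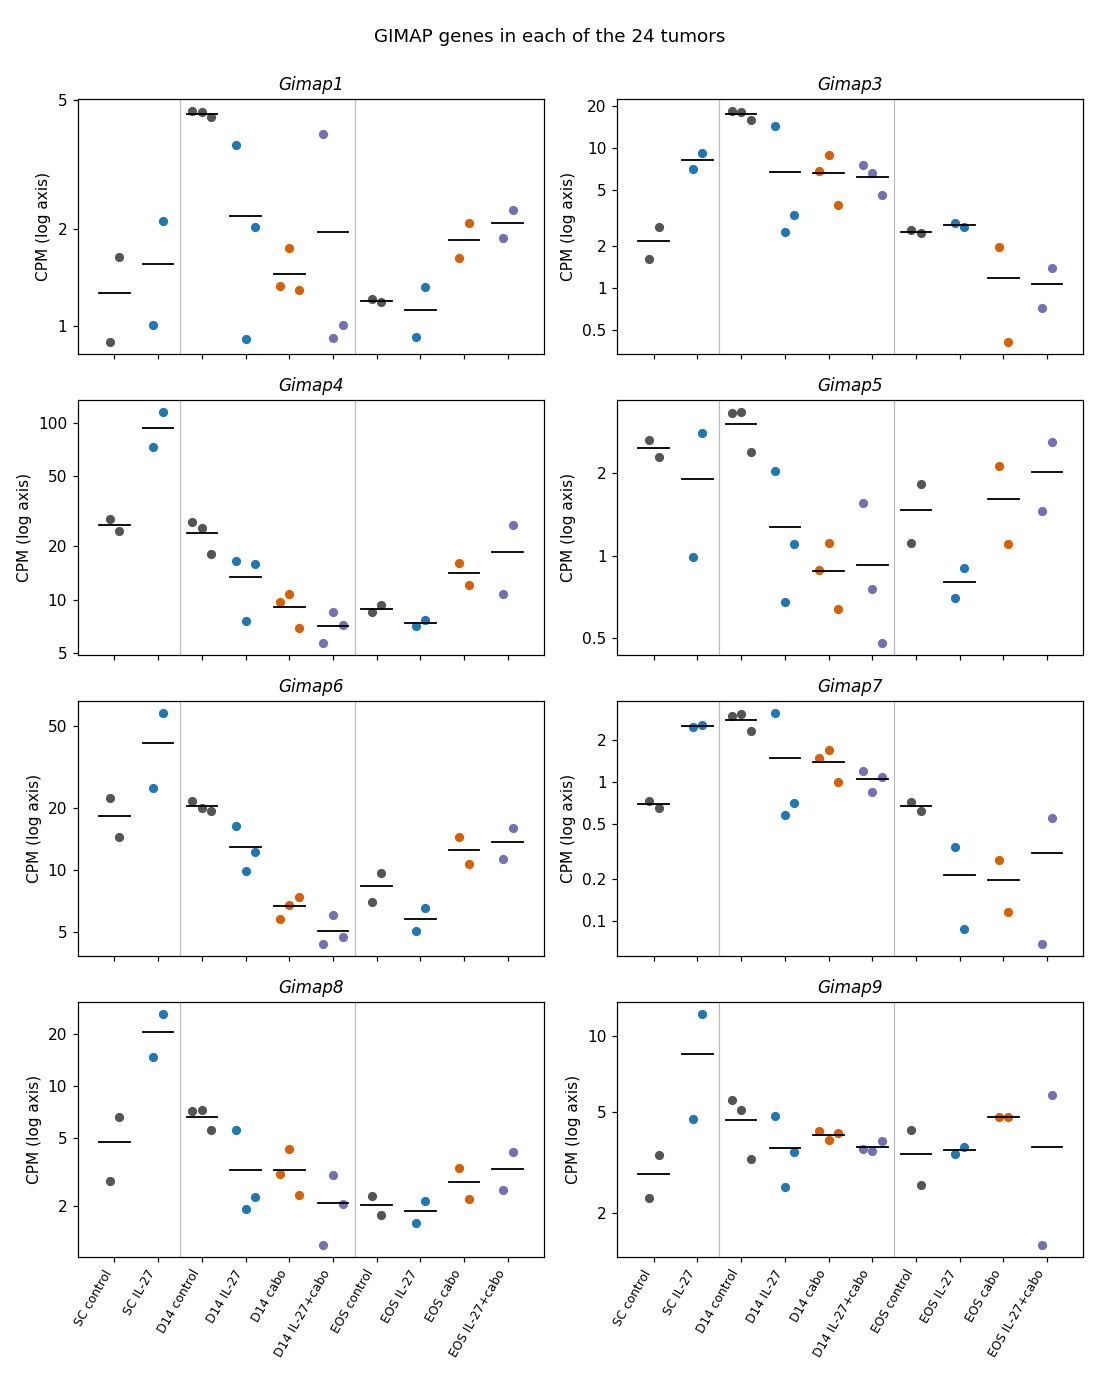
CPM (log axis) of each GIMAP gene in the 24 tumors by group, 1 point per tumor, with a line at the group mean. SC is subcutaneous, D14 day 14 and EOS the end of the study. Gimap4, Gimap6 and Gimap8 peak in the subcutaneous IL-27 tumors. Gimap3 peaks at 15.8 to 18.5 CPM in day 14 control tumors, whose values chose it. Gimap9 has the smallest ratio of highest to lowest group mean, 2.98.

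In order of group means, Gimap3 stood highest in day 14 control tumors (17.5 ± 1.49 CPM, SD, n = 3), clear of the next group, subcutaneous IL-27 (8.22 ± 1.52, n = 2). These control values chose Gimap3, so its place there is a description only. The day 14 IL-27, cabo and IL-27+cabo groups followed at 6.75 ± 6.63, 6.59 ± 2.55 and 6.26 ± 1.47 CPM and overlapped. Next came EOS IL-27 (2.83 ± 0.126, n = 2), clear of day 14 IL-27+cabo but within the range of day 14 IL-27, whose lowest tumor was at 2.52 CPM, then EOS control (2.52 ± 0.0641), without overlap with EOS IL-27, and then subcutaneous control (2.16 ± 0.8), EOS cabo (1.18 ± 1.09) and EOS IL-27+cabo (1.05 ± 0.473), each overlapping its neighbour. Of the 9 neighbouring pairs in the order, 6 overlapped. Gimap6 ran from subcutaneous IL-27 (41.6 ± 23.3 CPM, n = 2) through day 14 control (20.5 ± 1.21) down to day 14 IL-27+cabo (5.06 ± 0.89), with 7 of 9 neighbouring pairs overlapping. For Gimap5 and Gimap9 all 9 neighbouring pairs overlapped.

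Subcutaneous tumors asked what IL-27 alone does to the family, and no tumor of this comparison took part in choosing it. Gimap4 rose with IL-27, from 28.6 and 24.4 CPM in the controls to 72.5 and 115 CPM, a log2 fold change of 1.83 ± 0.35 (SE; edgeR quasi-likelihood test, Benjamini-Hochberg adjusted p = 0.0117). Gimap3 was 1.6 and 2.73 CPM in controls and 7.14 and 9.3 CPM with IL-27, and rose by 1.93 ± 0.5 (edgeR, adjusted p = 0.0364). Gimap8 was 2.79 and 6.63 CPM in controls and 14.6 and 26.1 CPM with IL-27, and rose by 2.11 ± 0.55 (edgeR, adjusted p = 0.0373). So 3 of 8 members were called higher and 0 lower, where 3.52% of 19360 genes tested were called higher.

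The other 5 members did not pass the test. Gimap7, at 0.731 and 0.652 CPM in controls and 2.51 and 2.57 CPM with IL-27, had a log2 fold change of 1.89 ± 0.56 (edgeR, adjusted p = 0.0577). Gimap9 had 1.57 and Gimap6 1.17, with Gimap6 at 22.4 and 14.5 CPM in controls and 25.1 and 58.1 CPM with IL-27. These 3 and the 3 called members were higher in each IL-27 tumor than in each control tumor, which is 6 of 8 where 31.6% of all genes tested were. Gimap1 (0.3 ± 0.66) and Gimap5 (−0.38 ± 0.63) overlapped between the groups, and Gimap5 was lowest in an IL-27 tumor, at 0.988 CPM. The median over the 8 was 1.7, against 0.04 over all genes tested.

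Other genes moved in the same tumors. The T cell list had 4 of 19 called higher and 1 lower. The lower one was the T cell receptor kinase Zap70, which had 0 counts in both IL-27 tumors, and the higher ones were led by Cd8a, a chain of the CD8 coreceptor (4.19 ± 0.79), and Cd3g, a receptor subunit (2.53 ± 0.5), and its summed level was 49.9 to 52.7 CPM in controls and 60.9 to 65.7 with IL-27. The NK cell list had 3 of 8 higher and 1 lower, and its sum was 23.4 to 25.9 CPM in controls and 49.6 to 83.5 CPM with IL-27. The endothelial list had 0 of 18 higher and 3 lower, Tie1, Cldn5 and Flt4, although Pecam1, the endothelial adhesion molecule, was at 95.1 and 112 CPM in controls and 144 and 350 CPM with IL-27. The tumor epithelium list had 0 of 5 higher and 2 lower, Hras (−3.89 ± 0.54) and the keratin Krt8 (−3.81 ± 0.69), with a median of −1.61 and sums of 89.5 to 139 CPM in controls and 61.3 to 82.7 CPM with IL-27. The macrophage list had 0 of 8 higher and 4 lower, led by the complement genes C1qc, C1qa and C1qb (−4.23, −3.86 and −3.03), with sums of 1200 to 1460 and 906 to 1380 CPM. Over all genes tested 16.5% were called lower. Skeletal muscle genes had 13 of 14 called higher, with sums of 6.62 to 17.4 CPM against 387 to 1190, and marrow myeloid genes 5 of the 6 tested, with 0.867 to 1.97 CPM against 37.1 to 38. The part of any of these cells in the change of the GIMAP genes was not tested.

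Base composition also moved with this comparison. Genes called higher had a median GC content of 43.6% and genes called lower 56.3%, where all tested genes had 49.1%. Gimap8, Gimap9 and Gimap4 had 41.3%, 42.6% and 43.3%, and Gimap3 and Gimap1 had 51.0% and 57.0%. With each library's trend over GC content and transcript length taken out, the log2 fold changes were 0.77 ± 0.28 for Gimap4, 0.95 ± 0.46 for Gimap8 and 1.75 ± 0.49 for Gimap3, and 0 of 8 members were called (edgeR, adjusted p = 0.139, 0.239 and 0.0722). That scaling moved the median over all genes from 0.04 to −0.32 and the median over the members from 1.7 to 0.86. With no filter on low counts Gimap4 alone was called, Gimap3 and Gimap8 having adjusted p of 0.0649 and 0.0711 by edgeR. Without the IL-27 tumor labelled replicate 2, or without the control tumor labelled replicate 1, 0 members were called. Over the 4 fits that left out 1 tumor, the log2 fold changes ran from 1.6 to 2.34 for Gimap3, 1.51 to 2.08 for Gimap4 and 1.63 to 2.85 for Gimap8.

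In the intratibial tumors of day 14, IL-27 was compared with control in the same way. All 8 members had negative log2 fold changes, from −1.36 for Gimap3 to −0.34 for Gimap9, with a median of −0.96 against 0.02 over all genes, but 0 of 8 were called (edgeR), with 0% of 18519 genes called. At an unadjusted p under 0.05 there were 4 members, all lower, as were 342 of the 18519 genes, and DESeq2 called 2 genes and 0 members. These controls also took part in choosing the family. Gimap3 was at 18.5, 18.2 and 15.8 CPM in controls and at 14.4, 2.52 and 3.34 CPM with IL-27, the highest being mouse 4. Without mouse 4 the median was −1.61 and 0 members were called. Lymphocyte genes were negative as well, 19 of 19 T cell genes (median −1.01), 9 of 9 B cell genes (−1.42) and 8 of 8 NK cell genes (−0.79), and 14 of 14 skeletal muscle genes were positive (3.32), with 0 called in each list. Also negative, with 0 called, were 13 of 13 interferon-inducible GTPases (−1.19) and 8 of 8 macrophage genes (−0.44). Summed T cell levels were 154 to 167 CPM in controls and 33 to 152 CPM with IL-27, B cell levels 7.2 to 9.4 and 2.2 to 4.77 CPM, NK cell levels 23.1 to 32.6 and 11.4 to 18.5 CPM, and muscle levels 9.42 to 198 and 37.7 to 2150 CPM. Their part in the GIMAP values was not tested.

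The difference between these changes, subcutaneous minus day 14, was tested in 1 model of the 4 groups. It was positive for all 8 members, and 4 of 8 passed the threshold, where 5.51% of 20977 genes did in that direction. The day 14 controls in it are values by which Gimap3 and Gimap6 were chosen, so their differences, 3.31 and 1.84 on the log2 scale, are a description, and the count of 4 is not independent of the choice. The log2 difference was 2.65 ± 0.5 for Gimap4 (edgeR, adjusted p = 0.00282) and 3.15 ± 0.73 for Gimap8 (edgeR, adjusted p = 0.00978), with the same controls. The tests of Gimap4 and Gimap8 are therefore not independent of the choice either. Gimap7 (2.81 ± 0.93) and Gimap9 (1.94 ± 0.66) lay just outside the threshold at adjusted p = 0.0506 and 0.0555 by edgeR. With the GC and length trend taken out 1 member, Gimap1, was called, and without the subcutaneous IL-27 tumor of replicate 2 the calls were Gimap4 and Gimap8. Within the same contrast 4 of 19 T cell genes were called higher and 1 lower, and 11 of 13 interferon-inducible GTPases higher and 0 lower. NK cell genes had 4 of 8 higher and 0 lower, and marrow myeloid genes 5 of 7 higher and 0 lower. Endothelial genes had 2 of 18 higher and 3 lower, macrophage genes 1 of 8 higher and 3 lower, and tumor epithelium genes 0 of 5 higher and 2 lower. Their part in the GIMAP values was not tested.

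At day 14, cabo was added to IL-27 in tumors that took no part in choosing the family. Gimap6 was at 16.5, 9.97 and 12.3 CPM with IL-27 alone and at 4.38, 6.07 and 4.74 CPM with IL-27+cabo, so that each tumor with cabo lay below each without, which held for 1 of 8 members and for 6.06% of all genes tested. Its log2 fold change was −1.35 ± 0.32, with an unadjusted p of 0.0039 but an adjusted p of 0.907 by edgeR. Gimap4 followed at −0.91 ± 0.39, from 16.6, 7.58 and 15.9 CPM to 5.66, 8.51 and 7.23 CPM, with overlap. The other 6 members had −0.63 to 0.01, and Gimap3 overlapped between the groups at −0.1 ± 0.67. In all, 0 of 8 members were called, with 0% of 18570 genes called, 2 members lower at an unadjusted p under 0.05, as were 311 genes, and DESeq2 calling 167 genes, Gimap6 among them. Without mouse 4 of the IL-27 group the median over the members was 0.15 in place of −0.47.

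Genes of other cells differed in the same tumors, with 0 called in each list named here. Of the 18 endothelial genes, 17 had negative values, with a median of −0.84, and the summed level was 335 to 421 CPM with IL-27 and 182 to 221 CPM with IL-27+cabo. T cell genes had a median of −0.61 with 15 of 19 negative, and sums of 33 to 152 CPM and 51.2 to 65.6 CPM. Macrophage genes were positive in 8 of 8 (median 1.02), with sums of 367 to 842 CPM and 897 to 1630 CPM, interferon-inducible GTPases in 13 of 13 (1.75), NK cell genes in 6 of 8 (1.26) and skeletal muscle genes in 14 of 14 (2.4), with muscle sums of 37.7 to 2150 CPM and 1750 to 5610 CPM. Their part in the GIMAP values was not tested.

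Against day 14 controls, which took part in the choice, IL-27+cabo gave negative values for all 8 members, from −1.98 ± 0.25 for Gimap6 to −0.31 ± 0.32 for Gimap9, with a median of −1.54 against 0.05 over all genes. Gimap6 was at 21.8, 20.1 and 19.5 CPM in controls, and at 4.38 to 6.07 CPM with the combination, a description only, since these controls chose it. Of the 8, 7 were lower in each treated tumor than in each control, where 8.57% of the 18750 genes tested were, the exception being Gimap9. By the adjusted p 0 of 8 passed, with 0.064% of all genes called. At an unadjusted p under 0.05 there were 6 members, all lower, where 369 of the 18750 genes were lower at that level, and DESeq2 called 5 members among 483 genes. Without the IL-27+cabo tumor of mouse 20, edgeR called 5 members, Gimap1, Gimap4, Gimap5, Gimap3 and Gimap6, among 175 of 19456 genes. Gimap3 and Gimap6 are in each of these counts, and since the same controls chose them nothing is read from their calls. Among the 12 genes called with all tumors were Cd3e (−2.67 ± 0.26) and Flt4, a lymphatic and vascular VEGF receptor (−3.63 ± 0.36), both by edgeR at adjusted p = 0.0406. T cell genes had a median of −1.59 (17 of 19 negative), endothelial genes −1.09 (15 of 18 negative) and skeletal muscle genes 5.35 (14 of 14 positive), the last with sums of 9.42 to 198 CPM in controls and 1750 to 5610 CPM with the combination, and their part in the GIMAP values was not tested. IL-27+cabo against cabo alone gave values of −0.61 to 0.48, with 0 of 8 members and 0% of 18662 genes called, 0 members at an unadjusted p under 0.05 and 0 by DESeq2.

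The contrast by which the family was chosen, cabo against control at day 14, is given as a description. Gimap6 had 5.83, 6.83 and 7.42 CPM with cabo, and the log2 fold changes were −1.61 for Gimap6, −1.78 for Gimap5, −1.64 for Gimap1, −1.4 for Gimap3, −1.37 for Gimap4, −1.03 for Gimap8, −1 for Gimap7 and −0.19 for Gimap9. Under the threshold used elsewhere 4 of 8 would count as lower, beside 0.693% of all 18627 genes, and 7 of 8 lay below every control, beside 13.7% of genes. The choice of the family fixes these counts, and nothing is read from them. Summed T cell levels were 154 to 167 CPM in controls and 54.7 to 74.2 CPM with cabo, endothelial sums 361 to 521 and 208 to 246 CPM, and skeletal muscle sums 9.42 to 198 and 1360 to 2000 CPM.

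At the EOS, after dosing had ended, the order at day 14 was not repeated. With IL-27+cabo Gimap6 was at 11.4 and 16.1 CPM and with IL-27 alone at 5.1 and 6.54 CPM, a log2 fold change of 1.26 ± 0.29 (edgeR, adjusted p = 0.165). Gimap4 was at 10.8 and 26.4 CPM against 7.08 and 7.66 CPM (1.35 ± 0.39), Gimap5 at 1.45 and 2.6 CPM against 0.698 and 0.9 CPM (1.36 ± 0.5), and Gimap1 at 1.87 and 2.29 CPM against 0.926 and 1.32 CPM (0.91 ± 0.34). Gimap3 had the other sign, at 0.717 and 1.39 CPM against 2.92 and 2.74 CPM (−1.41 ± 0.67). So 5 members, Gimap8 being the other, lay above and Gimap3 below in every tumor, where 21.5% of genes lay above and 22.8% below. By the adjusted p 0 of 8 were called, with 0% of 20026 genes. At an unadjusted p under 0.05 there were 4 members, all higher, as were 1518 of the 20026 genes, and DESeq2 called Gimap4 and Gimap6 among 1000 genes. Without the IL-27+cabo tumor of mouse 16, edgeR called Gimap4 among 117 of 21194 genes. The summed endothelial level was 472 to 640 CPM against 363 to 382 CPM, and the T cell sum 32.6 to 44.7 CPM against 33.6 to 37.3 CPM. Though the T cell sums overlapped, T cell genes had a median of −0.7 with 16 of 19 negative. Interferon-inducible GTPases were positive in 13 of 13 (median 3.12, sums of 181 to 600 against 43 to 58.8 CPM) and macrophage genes in 8 of 8 (1.25). The endothelial median was 1, below that of NK cell genes (3.35, 7 of 8 positive, sums of 16 to 16.4 against 6.78 to 8.2 CPM) and of skeletal muscle genes (3.17, 14 of 14 positive, sums of 113 to 260 against 13.2 to 21.8 CPM). The part of these cells in the GIMAP values was not tested.

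Against EOS controls, which also served in the choice, no treatment passed the test for any member by edgeR. IL-27 gave values of −1.65 to 0.16, cabo −1.77 to 0.67 and IL-27+cabo −1.25 to 1.07, each with 0 of 8 members and 0% of genes called. At an unadjusted p under 0.05 there were 0, 0 and 3 members, Gimap4, Gimap6 and Gimap1 in the combination, all higher, as were 1473 of 20026 genes there, and DESeq2 called 0 members in each. In both cabo-treated groups Gimap3 and Gimap7 were negative (−1.1 and −1.77 with cabo, −1.25 and −1.12 with IL-27+cabo) and the other 6 members positive.

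**Figure D2:**
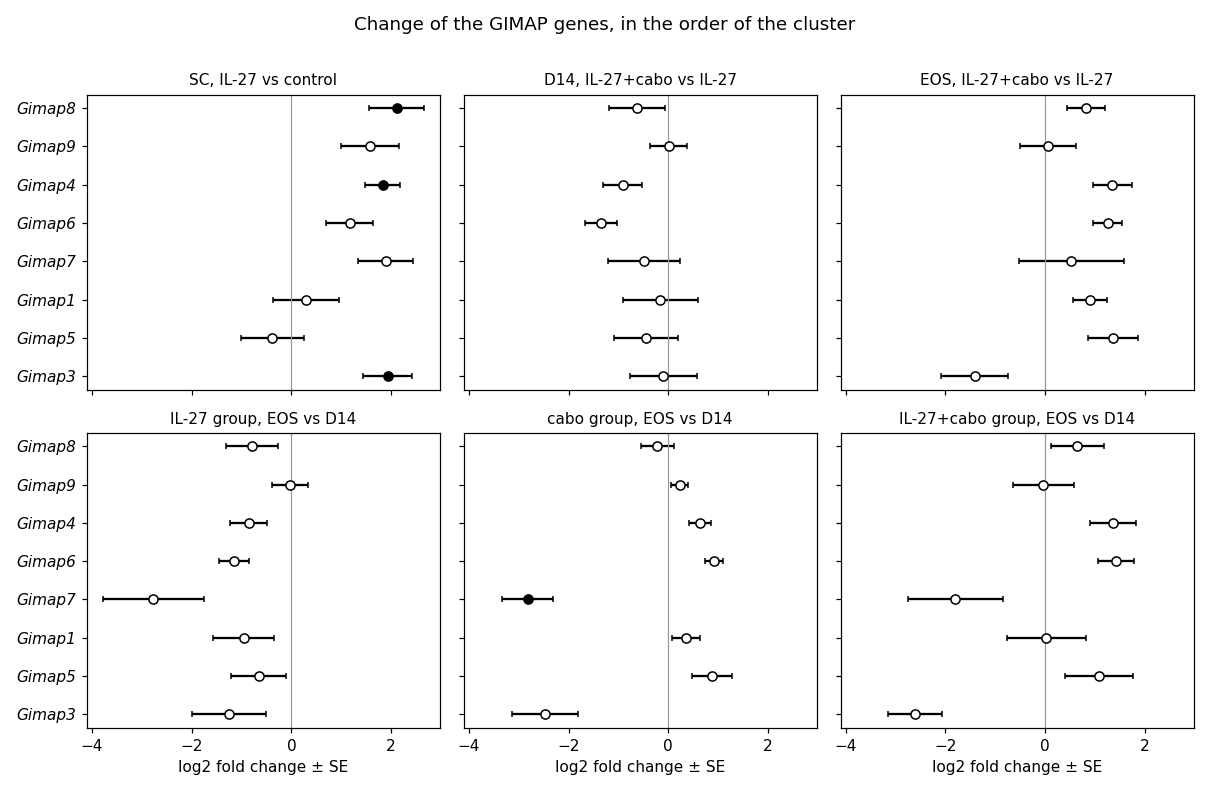
Log2 fold change ± SE of the 8 GIMAP genes, listed in the order of the cluster, in 6 comparisons. Filled points passed an adjusted p of 0.05, which are Gimap8, Gimap4 and Gimap3 in the subcutaneous comparison and Gimap7 in the cabo group. Between day 14 and the EOS, Gimap3 and Gimap7 lie lowest in both cabo-treated groups and in the IL-27 group (−1.25 and −2.77). The control group, not drawn, also had them lowest, at −2.79 and −2.05, in the contrast that chose Gimap3.

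From day 14 to the EOS 1 member passed the test in the cabo group and 0 in the IL-27+cabo group. In the cabo group Gimap7 fell from 1.48, 1.71 and 1 CPM at day 14 to 0.275 and 0.116 CPM at the EOS, a log2 fold change of −2.82 ± 0.51 (edgeR, adjusted p = 0.0494). Gimap3 went from 6.87, 8.99 and 3.92 CPM to 1.95 and 0.405 CPM, a log2 fold change of −2.47 ± 0.67 that did not pass (edgeR, adjusted p = 0.131). Gimap6 went the other way, from 5.83, 6.83 and 7.42 CPM to 14.5 and 10.7 CPM, a log2 fold change of 0.92, a description only since its day 14 cabo values chose it, and Gimap4 had 0.64 ± 0.22 and Gimap5 0.88 ± 0.4. Gimap1, Gimap9 and Gimap8 lay between 0.36 and −0.22. This made 1 of 8 called lower, where 1.14% of 19144 genes were, and DESeq2 called 3, Gimap3, Gimap7 and Gimap6, of which nothing is read for Gimap6. The call of Gimap7 was lost in 4 of 5 fits that left out 1 tumor, those without the day 14 mice 21, 25 and 27 and without the EOS mouse 23, with adjusted p up to 0.179 by edgeR, and its EOS counts were 20 and 8. It was lost as well with no filter on low counts, with all 10 groups in 1 fit and with the GC content and length offset, with adjusted p up to 0.43 by edgeR. The day 14 cabo tumors also served in the choice.

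T cell and endothelial genes moved apart in the same contrast. The T cell list had 0 of 19 called higher and 4 lower, with Cd247 and Cd3e (subunits of the receptor complex, −2.58 ± 0.32 and −3.32 ± 0.43), Trac (the receptor alpha chain, −2.38 ± 0.43) leading, and its sum was 54.7 to 74.2 CPM at day 14 and 27.2 to 37.1 CPM at the EOS. The endothelial list had 12 of 18 higher and 0 lower, where 0.945% of all genes were called higher, led by Cldn5 (a tight junction protein, 3.94 ± 0.23), Flt4 (4.35 ± 0.26) and Emcn (a venous and capillary sialomucin, 3.31 ± 0.22), and its sum was 208 to 246 CPM and then 508 to 605 CPM. Skeletal muscle genes had 0 of 14 called with a median of −1.47. The part of these cells in the GIMAP values was not tested.

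In IL-27+cabo tumors, which took no part in the choice, 6 of 8 members had the sign they had in the cabo group, without calls, the exceptions being Gimap8 (0.65 against −0.22) and Gimap9 (−0.03 against 0.23). Gimap3 was at 7.53, 6.6 and 4.64 CPM at day 14 and 0.717 and 1.39 CPM at the EOS (−2.61 ± 0.54), Gimap7 at 1.21, 0.85 and 1.08 CPM and then 0.0677 and 0.547 CPM (−1.8 ± 0.95), Gimap6 at 4.38, 6.07 and 4.74 CPM and then 11.4 and 16.1 CPM (1.42 ± 0.36), and Gimap4 at 5.66, 8.51 and 7.23 CPM and then 10.8 and 26.4 CPM (1.36 ± 0.46). Gimap3 and Gimap7 were lower and Gimap6 and Gimap4 higher in each EOS tumor than in each day 14 tumor, which is 2 of 8 lower and 2 of 8 higher where 11% and 11.3% of all genes tested were. By edgeR 0 of 8 were called, with 0% of 19365 genes, 3 members (Gimap3, Gimap6 and Gimap4) at an unadjusted p under 0.05, as were 742 genes, and DESeq2 calling Gimap3 and Gimap6 among 326 genes. T cell genes had a median of −1.61 with 18 of 19 negative, and endothelial genes a median of 1.49 with 18 of 18 positive. Skeletal muscle genes had a median of −4.47 with 14 of 14 negative, and sums of 1750 to 5610 CPM and then 113 to 260 CPM. The part of these cells was not tested.

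With all tumors included, the group given IL-27 without cabo had 1 sign over time. From day 14 to the EOS all 8 members were negative, from −2.77 ± 1.01 for Gimap7 to −0.03 ± 0.36 for Gimap9, with Gimap6 at −1.15 ± 0.3 and Gimap3 at −1.25 ± 0.75. Here 0 of 8 were called, with 0% of 19078 genes, 2 members (Gimap6 and Gimap7) lower at an unadjusted p under 0.05, as were 588 genes, and DESeq2 calling Gimap6 among 105 genes. T cell genes had a median of −1.37 and endothelial genes −0.16, while NK cell genes had −2.1 (8 of 8 negative) and skeletal muscle genes −5.79 (14 of 14 negative). Interferon-inducible GTPases had −1 (13 of 13 negative). B cell genes went the other way at 1.7 (8 of 9 positive), with sums of 2.2 to 4.77 and then 4.94 to 7.52 CPM. NK cell sums were 11.4 to 18.5 and then 6.78 to 8.2 CPM, and muscle sums 37.7 to 2150 and then 13.2 to 21.8 CPM, and their part was not tested. Without mouse 4 the median over the members was −0.28 in place of −0.91. Gimap3 was then at 2.52 and 3.34 CPM at day 14 and 2.92 and 2.74 CPM at the EOS. Gimap9 was at 2.52 and 3.47 CPM and then 3.42 and 3.64 CPM. Both overlap between the harvests, so the shared sign depends on mouse 4. In control tumors, the contrast that chose Gimap3, all 8 members were negative as well, from −2.79 for Gimap3 (18.5, 18.2 and 15.8 CPM, then 2.57 and 2.48 CPM) to −0.44 for Gimap9. Under the threshold used elsewhere 1 of 8 would count as lower, beside 0.104% of 19292 genes, and 7 of 8 lay below every day 14 tumor, beside 18% of genes. Here too the choice fixes the counts, and nothing is read from them. In the same tumors T cell genes had a median of −2.48 (19 of 19 negative, 8 called lower), NK cell genes −1.57 (8 of 8 negative), interferon-inducible GTPases −1.73 (13 of 13 negative) and skeletal muscle genes −2.82 (13 of 13 tested negative), and their part was not tested.

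**Figure D3:**
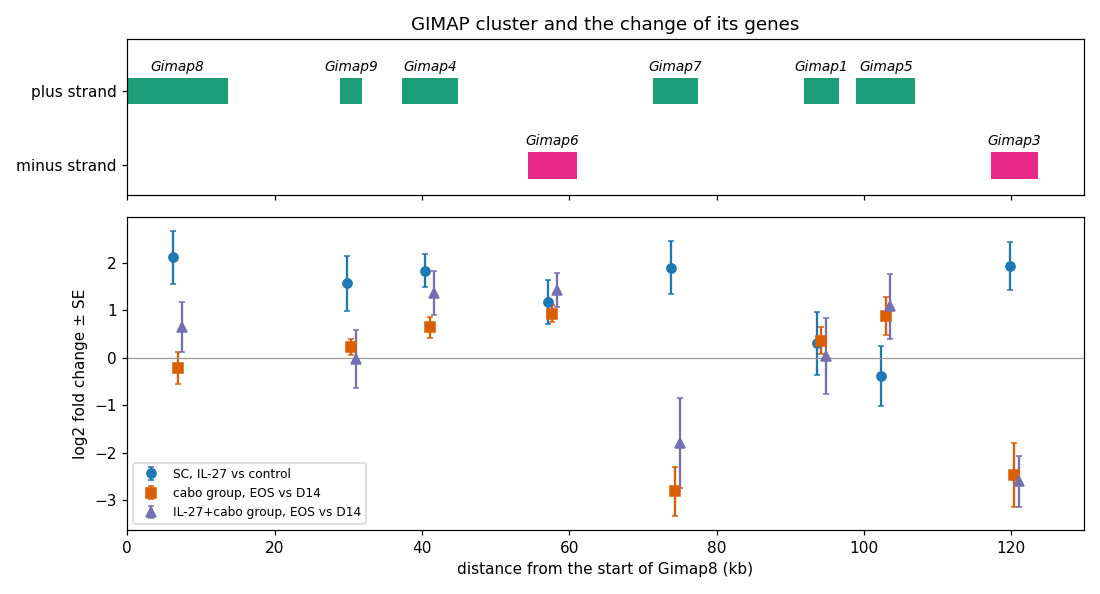
Top, the 8 GIMAP genes drawn to scale by strand, by distance from the start of Gimap8 in kb. Below, their log2 fold changes ± SE in 3 comparisons at the middle of each gene, where Gimap7 and Gimap3, which are not neighbours, lie lowest in both cabo-treated groups while Gimap6, between Gimap4 and Gimap7, lies above 0. Gimap7 and Gimap3 were also lowest over time without cabo, in the control and IL-27 groups, which are not drawn.

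Whether the change with cabo on the IL-27 background differed between the harvests was tested in 1 model of 4 groups with no control tumor. The EOS minus day 14 difference was 2.59 ± 0.48 for Gimap6 (unadjusted p = 0.00033, adjusted p = 0.407, edgeR) and 2.25 ± 0.65 for Gimap4 (unadjusted p = 0.00654, edgeR), and Gimap3 was the only negative member at −1.31 ± 0.98. In this contrast 0 of 8 members and 0% of 20487 genes were called, with 2 members higher at an unadjusted p under 0.05, as were 275 genes, and DESeq2 called Gimap6 among 68 genes. With all 10 groups sharing 1 estimate of the spread, edgeR called Gimap6 as well. NK cell genes had a median of 2.02 (8 of 8 positive), endothelial genes 1.89 (17 of 18 positive), interferon-inducible GTPases 1.27 (13 of 13 positive), skeletal muscle genes 1.12 (12 of 14 positive), T cell genes −0.34 and B cell genes −3.57 (9 of 9 negative). Their part in the GIMAP values was not tested.

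Ratios within a tumor do not depend on its depth. Log2 CPM of Gimap3 minus that of Gimap6 was −2.88, −4.64, −3.94 and −3.51 in the 4 EOS tumors that had received cabo and −1.97 to 0.78 in the other 16 intratibial tumors, with no overlap. Gimap3 made up 1.2% to 4.4% of the family's counts in those 4 tumors and 8.1% to 25.9% in the other 16. Subcutaneous tumors lay at −3.79 to −1.81, with Gimap3 at 2.6% to 5.6% of the family's counts. These ranges were drawn up after the values were seen and carry no test.

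**Figure D4:**
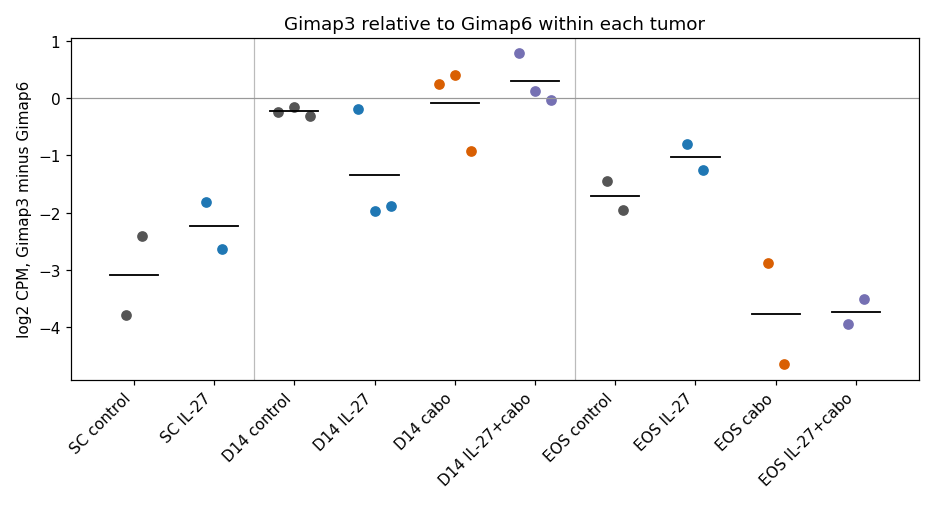
Log2 CPM of Gimap3 minus that of Gimap6 in each of the 24 tumors by group, with a line at the group mean. The 4 EOS tumors that had received cabo lie between −4.64 and −2.88, below the other intratibial tumors.

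Gimap3 and Gimap6 were set against the T cell list (the mean log2 CPM of its 19 genes) in each tumor. For Gimap3 the log2 CPM lay 1.64 ± 0.04 above the list in day 14 controls, 1.33 ± 0.43 above with cabo, 1.62 ± 0.19 with IL-27+cabo and 1.34 ± 0.08 with IL-27 (SD, n = 3 each), 0.63 ± 0.1 to 1.2 ± 0.2 in the EOS groups (n = 2 each) and 1.08 ± 0.29 and 2.38 ± 0.09 in subcutaneous control and IL-27 tumors. Against the endothelial list it ranged from 0.21 ± 0.28 in day 14 controls to −4.53 ± 1.34 in EOS cabo tumors. Gimap6 lay 1.33 ± 0.28 to 2.69 ± 1 above the T cell list in the day 14 groups. At the EOS it lay 2.83 ± 0.02 above it in controls and 2.22 ± 0.12 with IL-27, but 4.55 ± 0.52 with cabo and 4.36 ± 0.4 with IL-27+cabo. Relative to the endothelial list Gimap6 went from 0.44 ± 0.34 at day 14 to −0.76 ± 0.05 at the EOS in controls, from −0.13 ± 0.33 to −1.14 ± 0.16 with IL-27, from 0.03 ± 0.2 to −0.77 ± 0.09 with cabo and from −0.36 ± 0.27 to −0.65 ± 0.1 with IL-27+cabo. The day 14 control and cabo values of Gimap6 are those that chose it. The day 14 and EOS control values of Gimap3 likewise chose Gimap3, and none of these differences was tested. Subcutaneous IL-27 tumors were apart, with Gimap6 1.75 ± 0.1 above the endothelial list.

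**Figure D5:**
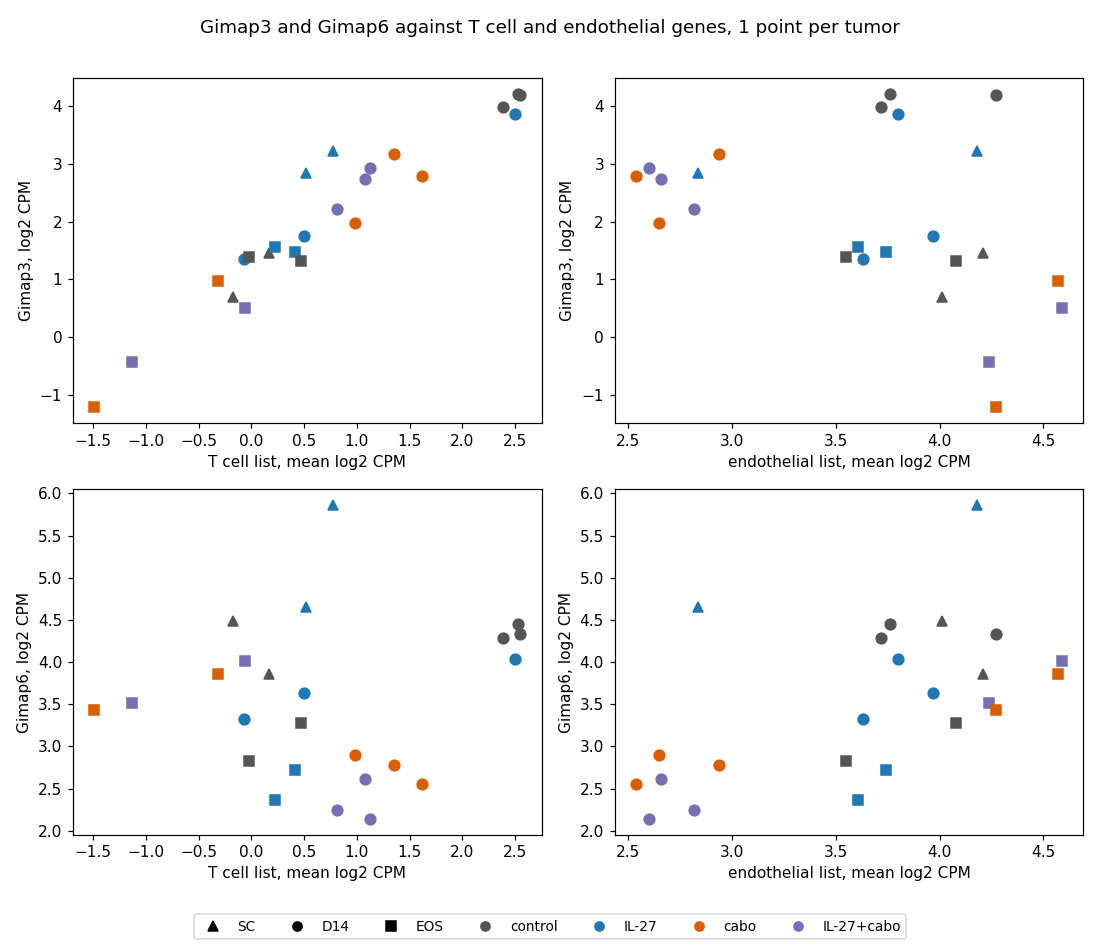
Log2 CPM of Gimap3 (top) and Gimap6 (bottom) against the mean log2 CPM of the T cell list (left) and the endothelial list (right), 1 point per tumor, shape for site and time and color for treatment. Gimap3 is highest in the day 14 control tumors, whose values chose it, at 2.38 to 2.55 in T cell genes. The subcutaneous IL-27 tumors, at 0.52 and 0.77, hold Gimap3 at 2.84 and 3.22, above the 1.75 of a day 14 IL-27 tumor at 0.5. The 4 EOS tumors that had received cabo, at −1.49 to −0.06 in T cell genes, keep Gimap6 at 3.43 or above.

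The members were then compared tumor by tumor after each group's mean had been taken away, over the 20 intratibial tumors, which share 8 groups. Among the 28 pairs of members Pearson's r of log2 CPM ran from 0.07 (Gimap1 and Gimap8) to 0.8 (Gimap3 and Gimap5), with a median of 0.56, and without mouse 4 of the day 14 IL-27 group from −0.19 to 0.76, with a median of 0.5. Of 21553 genes ranked by r with the mean of the standardised members, the most alike were Pou2f2, a lymphocyte octamer-binding factor (0.94), Lck, the T cell kinase (0.93), Cd3e (0.91), Ubash3a, a T cell signaling suppressor (0.9), and Cd27, a lymphocyte costimulatory receptor (0.9). Cd8a was ranked 120 at 0.73, Cd4 1064 at 0.51, Pecam1 1966 at 0.41, Cdh5 2726 at 0.35 and Ncr1, an NK cell receptor, 5105 at 0.23. The order of these changed without mouse 4, where r was 0.24 for Cd4 and 0.22 for Cdh5 and higher for Pecam1, at 0.54, and Ncr1, at 0.46. These are descriptions over tumors that share a site and a library series.

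Alone, Gimap3 was most like Cd2, a T cell adhesion molecule (0.97), Ms4a4b, a membrane protein of T cells (0.94), and Cd3g (0.93), and lay at 0.78 with Cd3e, 0.47 with Cd4, 0.24 with Cdh5 and 0.21 with Pecam1. Gimap6 was most like Coro2a (0.89), Celf2, an RNA-binding protein (0.87), and Pou2f2 (0.87), and lay at 0.81 with Cd3e, 0.58 with Cdh5 and 0.53 with Pecam1. Without mouse 4 Gimap3 gave 0.96 with Cd2, 0.65 with Cd3e and 0.15 with Cd4, and Gimap6 gave 0.77 with Cd3e.

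Genes that work beside the family were counted from lists. Of 12 genes of lymphocyte quiescence and recirculation, 3 were called higher and 1 lower in subcutaneous IL-27 tumors, among them Il7r, the interleukin-7 receptor (2.53 ± 0.52), and Klf2, a quiescence factor (−1.84 ± 0.39). Of 8 BCL2 family genes 0 were called higher and 4 lower there, where 16.5% of all genes were called lower. They were led by Bax, Bad and Bak1, promoters of cell death (−4.72, −4.11 and −2.86), and the other was Bcl2l1, which opposes it (−2.15). Of 7 ATG8 conjugation genes 0 were called higher and 2 lower, Map1lc3a and Map1lc3b (−4.06 and −1.53). The lists were not counted again with the GC content and length offset. Of 13 interferon-inducible GTPases, which belong to other GTPase families, 9 were higher and 0 lower, led by Mx1 (2.76 ± 0.39), Gbp6 (3.17 ± 0.52) and Irgm2 (2.32 ± 0.47). From day 14 to the EOS in the cabo group the calls were 1 of 12 quiescence genes, Ets1 (0.4 ± 0.07), 1 of 8 BCL2 family genes, Bcl2l11 (0.65 ± 0.07), both higher as were 0.945% of all genes, and 0 of the 7 ATG8 conjugation genes and of the 13 GTPases, whose median was −1.59.

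Of 52 annotated non-members within 500 kb of the cluster, 22 to 24 could be tested in a comparison, with medians of −0.18 to 0.31. Of these, 2 were called in the subcutaneous comparison, Krba1 (−2.33 ± 0.46) and Gm44226, a long noncoding RNA gene annotated between Gimap5 and Gimap3 (2.48 ± 0.67), and the same 2 in the difference between subcutaneous and day 14 tumors. In the other comparisons 0 of them were called by edgeR.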

How the data were processed

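Poly(A) RNA of 24 tumors was sequenced from stranded libraries. The deposited table holds raw counts per Ensembl gene, made by the authors with no normalization; the submitters' processing notes name FastQC, HISAT2, StringTie and DESeq2 without versions, and list a human genome build although the identifiers are those of mouse. The counting program and its strand setting are not given in the sources used here. Of values from 1 to 20, 30.4% to 35.5% per library were multiples of 4, so an alternative divided counts by 4.

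Identifiers were matched to GENCODE M21 (GRCm38), which held 55141 of 55401. Genes passing filterByExpr were scaled by TMM and tested in R 4.3.3 with edgeR 4.0.16, the quasi-likelihood F test on the groups compared, with Benjamini-Hochberg adjustment over all genes tested and a threshold of 0.05. SE is the size of the log2 fold change divided by the square root of F. Log2 CPM used a prior count of 2. The test was checked on simulated counts. Alternatives were DESeq2 1.42.0, RLE size factors, no filter, 1 fit of all 10 groups, an offset for GC content and length, counts divided by 4, a replicate block and leaving out each tumor.

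The members, gene lists and tests were chosen with earlier results of these data known. All 8 members were named, at most 3 called genes per list and comparison by smallest p, the called genes within 500 kb, a few defining markers, and the genes most alike in r. Bcl2l1 was named besides in the subcutaneous comparison. Mouse numbers do not recur between intratibial groups. The subcutaneous labels share replicate numbers, but deviations of same-numbered tumors had a correlation of 0.0316 over 19360 genes in 2 pairs, so the numbers were not taken as pairs. Those labels do not name animals, so the spread there may be technical. Protein sequences were not used here. Values of a few genes of the lists are not reported here.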

Additional observations from a re-analysis of the deposited data

Results flagged for a closer look

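The change with IL-27 in subcutaneous tumors minus that in day 14 intratibial tumors passed the test of the difference for 4 members (edgeR interaction term, Benjamini-Hochberg adjusted over 20977 genes). The log2 difference was 2.65 for Gimap4 and 3.15 for Gimap8, and 3.31 for Gimap3 and 1.84 for Gimap6. The day 14 control tumors in this contrast hold the values by which Gimap3 and Gimap6 were chosen, so for these members the test is not independent of the choice and the difference is given as a value only. Gimap4 and Gimap8 were tested against the same controls, so their tests are not independent of the choice either. Site, tumor age, luciferase marking, PVP dosing and library series cannot be told apart. With the GC content and length offset the differences were 1.64 for Gimap4 and 2.01 for Gimap8, with adjusted p of 0.0514 and 0.085 by edgeR, and 3.11 for Gimap3 and 1.18 for Gimap6.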

How the results depend on the processing

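No member called in the subcutaneous comparison, the subcutaneous minus day 14 difference or the cabo group over time changed sign under the alternatives run. Counts of members called, in the order given as the reported count and then the alternative, moved as follows. For subcutaneous IL-27 against control (3), DESeq2 gave 6, no filter 1, all 10 groups in 1 fit 5, the GC content and length offset 0, counts divided by 4 gave 4, the replicate block 3 and the replicate block with that offset 0. For the subcutaneous minus day 14 difference (4) the offset gave 1, DESeq2, RLE size factors and counts divided by 4 gave 6 each, and all groups 5. DESeq2 gave 1 for day 14 IL-27+cabo against IL-27, 2 for the same contrast at the EOS, 1 for the IL-27 group over time, 2 for the IL-27+cabo group over time and 1 for the cabo change on IL-27, each from 0, and all 10 groups in 1 fit gave 1 for the last. For day 14 IL-27+cabo against control (0), DESeq2 gave 5, all groups 2 and the offset 1. For the cabo group over time (1), DESeq2 gave 3, no filter 0, all groups 0, the offset 0 and counts divided by 4 gave 2. Of the contrasts that chose the family, from whose counts nothing is read, day 14 cabo against control (4) gave 7 with DESeq2, 2 with no filter and 1 with all groups, and the control group over time (1) gave 6, 0 and 0. The cause was not tested.

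Leaving out 1 tumor gave 0 to 4 members in the subcutaneous comparison, 2 to 6 in the subcutaneous minus day 14 difference, 0 to 1 for EOS IL-27+cabo against IL-27, 0 to 5 for day 14 IL-27+cabo against control, 0 to 2 for the cabo group over time, 1 to 3 for day 14 cabo against control, and 0 to 0 in the others, the control group over time included. A lone tumor was assumed to vary like the other groups. Genes called in the subcutaneous comparison numbered 3880, and 6120 by DESeq2, 7076 with all groups and 2205 with the offset; of these 17.6%, 36.7%, 33.6% and 17.6% were higher. In the cabo group over time 400 genes were called, and 1749 by DESeq2, 110 with no filter and 47 with all groups. Gimap7, with as few as 5 counts in a tumor, is the member most limited by depth.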
